A study of Mus musculus with 4 samples.

Results

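The genes described are those that make peptides for MHC class I molecules and load them: the light chain B2m, the peptide transporter Tap1 and Tap2, the loading factor Tapbp, the immunoproteasome subunits Psmb8, Psmb9 and Psmb10, and the endoplasmic reticulum (ER) chaperones Calr, Canx and Pdia3. They were chosen by name, and every probe set that the platform annotation assigns to exactly 1 of the 10 symbols was taken. This gave 19 of the 22626 probe sets that are not array controls. Of the 19, 16 passed a filter on low signal (a geometric mean over the 4 arrays of at least 115) and were tested, and each of the 10 genes had at least 1 tested probe set.

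The samples were Langerhans cells, the antigen-presenting cells of the epidermis, taken from mice 24 h after an intraperitoneal injection of 100 µl and sorted to a purity of 95%, with 1 array per sample. The 2 TCDD samples came from mice given 10 µg of TCDD (2,3,7,8-tetrachlorodibenzo-p-dioxin), the dioxin that activates the aryl hydrocarbon receptor (AhR), in oil for TCDD 1 and in DMSO and oil for TCDD 2. Control 1 received DMSO and olive oil. Control 2 is called a control by its title and description, but its treatment protocol names TCDD, so results are also given without it. Control 1 and TCDD 1 name no skin site, whereas control 2 and TCDD 2 came from back skin. These pairs are called the preparations. The pairing rests on the site labels, which do not show that the arrays of a pair shared an experiment. The controls also differ in the experiment they belong to, so site and experiment cannot be told apart. The sources used here do not give strain, sex or age of the mice, the number of animals per array or any pooling. The p-values therefore measure only the spread between these arrays, which may be technical.

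Most nucleated cells show peptides from their own cytosol on MHC class I. Proteasomes cut proteins into peptides, the TAP transporter moves them into the ER, and there the peptide-loading complex fits them onto a heavy chain paired with B2m. Interferon-gamma induces immunoproteasome subunits that replace the constitutive catalytic subunits, and cells of the immune system carry many immunoproteasomes without stimulation. Dendritic cells such as Langerhans cells can also load peptides from material they have taken up, which is known as cross-presentation. Psmb9, Tap1, Psmb8 and Tap2 are consecutive protein-coding genes in the class II region of the mouse MHC.

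The sequence before the start sites is shown for B2m, whose brighter probe set was nearly level over the arrays, for the stretch that Tap1 and Psmb9 share, and for Calr and Pdia3, chaperones that ran high and low on much the same arrays. The sequences are from RefSeq (GRCm38.p6), 5′ to 3′ on the strand given, end at the base before transcription starts and hold no transcribed base. The array files name no build, and the coordinates belong to the sequences alone. Of the 10 genes, 9 had an entry, and Tap2 had none. Capitals mark matches on either strand to the motifs GAAANNGAA (interferon-stimulated response element type), GGANNTTCC (NF-kB type), TTCNNNGAA (STAT type), CCGCCC (GC box), GCGTG (core of the AhR binding site) and CCACG (second part of the ER stress element).

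B2m, chr2:122147437-122147686, plus strand: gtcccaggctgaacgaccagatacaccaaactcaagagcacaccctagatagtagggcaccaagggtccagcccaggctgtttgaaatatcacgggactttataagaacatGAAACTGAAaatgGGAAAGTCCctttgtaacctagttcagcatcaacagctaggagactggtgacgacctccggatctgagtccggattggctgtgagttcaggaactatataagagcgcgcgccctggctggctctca

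Tap1 and Psmb9, chr17:34187331-34187555, plus strand: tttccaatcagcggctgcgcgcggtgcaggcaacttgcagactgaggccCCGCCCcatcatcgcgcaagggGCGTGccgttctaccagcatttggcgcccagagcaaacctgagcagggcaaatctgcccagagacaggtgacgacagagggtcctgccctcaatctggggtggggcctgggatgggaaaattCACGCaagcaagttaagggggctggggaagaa

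Calr, chr8:84846932-84847181, minus strand: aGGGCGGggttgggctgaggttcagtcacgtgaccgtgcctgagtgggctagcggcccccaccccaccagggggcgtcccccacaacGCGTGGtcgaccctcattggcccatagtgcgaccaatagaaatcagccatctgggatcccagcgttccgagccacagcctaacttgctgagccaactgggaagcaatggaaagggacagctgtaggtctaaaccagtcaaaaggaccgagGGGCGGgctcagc

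Pdia3, chr2:121413652-121413901, plus strand: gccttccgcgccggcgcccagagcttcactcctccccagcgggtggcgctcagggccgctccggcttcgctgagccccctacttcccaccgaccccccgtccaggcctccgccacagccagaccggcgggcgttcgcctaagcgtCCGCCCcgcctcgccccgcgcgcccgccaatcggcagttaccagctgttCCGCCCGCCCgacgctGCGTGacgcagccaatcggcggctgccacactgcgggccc

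Tap1 and Psmb9 are transcribed away from each other, and all 225 bases between their start sites are shown. Motifs were counted over the whole entry of 300 bases, from 250 before to 50 after the start. The GAAANNGAA motif was found in 1 of the 9 windows, that of B2m, 139 bases before the start, and in 8.56% of all 32851 windows in the table. The B2m window also held the only match to GGANNTTCC, 126 bases before the start, a motif found in 4.26% of all windows. The AhR core GCGTG was in 7 of the 9 windows (Tap1, Psmb9, Psmb8, Psmb10, Calr, Canx and Pdia3) and in 32.4% of all windows. The windows of Tap1 and Psmb9 overlap, and their AhR cores and their GC box are the same bases. In Calr and in Canx the core overlaps a CCACG motif. GC boxes were in 6 of the 9 windows and in 35.7% of all. CCACG was in 3 of the 9 and in 32.8% of all, and TTCNNNGAA was in 1 (Psmb8) and in 8.3% of all. These matches describe letters and do not show binding.

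Values are MAS5 signals, linear intensities that the authors scaled by array, with array medians from 165 to 188. The actin control probe sets, read at both ends of the transcript, gave a 3′ to 5′ ratio of 49.7 for control 1, 7.71 for TCDD 2, 4.64 for control 2 and 3.48 for TCDD 1. The Gapdh ratios had the same order, from 107 down to 9.55. Of 10 Langerhans cell markers 10 passed the filter. Their summed signal lay between 37774 (control 1) and 49649 (control 2). Over the 4 arrays, the summed signal of 9 of 10 keratinocyte markers was 1231 to 1744, of 7 of 8 melanocyte markers 1580 to 2196, of 8 fibroblast and endothelial markers 918 to 1248, and of 7 of 8 markers of B cells, plasma cells and granulocytes 628 to 813.

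Among the immunoproteasome subunits, Psmb8 (LMP7, the chymotrypsin-like subunit) had signals of 8841.2 (control 1), 8899.2 (TCDD 1), 8394.2 (control 2) and 10057.9 (TCDD 2). Both TCDD arrays lay above both controls, though TCDD 1 was nearly equal to control 1. Psmb9 (LMP2), which replaces the caspase-like subunit, had signals of 1743.8, 1881.0, 2227.7 and 2588.6 in the same order of arrays. The back skin arrays were both higher, and within each preparation the TCDD array was the higher. Psmb10 (MECL-1), which replaces the trypsin-like subunit, had signals of 983.4 (control 1), 1511.0 (TCDD 1), 1448.0 (control 2) and 1370.3 (TCDD 2). Control 1 stood apart, and the other arrays lay close together.

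Tap1 and Tap2 form the transporter that pumps peptides into the ER. The brightest Tap1 probe set, 1416016_at, had signals of 1353.0 (control 1), 1027.8 (TCDD 1), 1039.2 (control 2) and 1047.4 (TCDD 2). Control 1 was the high array, and the other arrays were nearly equal. A further tested Tap1 probe set, 1449803_x_at, lay at the filter with signals from 100.1 to 129.8. The remaining Tap1 probe sets failed the filter, with a highest signal of 89.7 for 1420274_at and 19.7 for 1448177_at. Tap2 had signals of 930.0, 1046.3, 1141.7 and 864.1 on control 1, TCDD 1, control 2 and TCDD 2. Tapbp (tapasin), which bridges the transporter and the heavy chain, had signals of 8954.1, 8254.5, 8524.2 and 7874.6 in that order by probe set 1421812_at. Both TCDD arrays were below both controls, by a small margin. Its other probe set, 1450378_at, failed the filter, with 94.4 (control 1), 26.3 (TCDD 1), 163.5 (control 2) and 120.6 (TCDD 2).

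B2m is the invariant light chain without which class I molecules do not reach the cell surface. Its brighter probe set, 1449289_a_at, had signals of 9487.9 (control 1), 9958.0 (TCDD 1), 9734.5 (control 2) and 10520.6 (TCDD 2). The highest was 1.11 times the lowest. Of all tested probe sets, 1.44% varied as little over the 4 arrays, and of the 650 with a geometric mean signal of at least 5000, 2.92%. Tapbp 1421812_at (1.14-fold from lowest to highest) and Psmb8 (1.2-fold) were also narrow, where the median of those 650 was 1.41-fold. The other B2m probe set, 1452428_a_at, was not level: its signals were 3501.3, 6889.8, 6175.7 and 4428.7, a 1.97-fold range with control 1 lowest and TCDD 1 highest. The probe sets of B2m thus gave different pictures of the same arrays, and neither pattern was past the test.

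Calreticulin (Calr) and calnexin (Canx) are lectin chaperones that hold newly made glycoproteins in the ER, and Pdia3 (ERp57) is a thiol oxidoreductase that is linked to tapasin in the loading complex. Calr 1417606_a_at had signals of 979.6 (control 1), 2059.1 (TCDD 1), 1855.6 (control 2) and 1582.8 (TCDD 2). The other Calr probe sets had the same lowest array and the same highest array over smaller ranges, 953.2 to 1293.0 for 1456170_x_at and 670.2 to 949.1 for 1433806_x_at. The suffix x marks probe sets whose probes may bind other transcripts. Pdia3 had signals of 316.3, 593.8, 540.5 and 250.4 on control 1, TCDD 1, control 2 and TCDD 2. Control 1 and TCDD 2 were low and the other arrays high, a 2.37-fold range that was the widest of the 16 tested probe sets.

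Canx was read by 3 tested probe sets that did not run together. On control 1, TCDD 1, control 2 and TCDD 2, 1415692_s_at had signals of 2184.7, 2640.7, 2936.2 and 1601.4. In that order, 1422845_at had signals of 292.1, 383.4, 292.6 and 194.6. Both were lowest on TCDD 2. The third, 1428935_at, was highest on control 1 (880.0) and lowest on control 2 (414.7), with 550.4 and 546.1 on TCDD 1 and 2. Of the 16 tested probe sets, 3 (Calr 1417606_a_at, Canx 1428935_at and Pdia3) spanned at least 2-fold over the arrays, where 21.5% of all tested probe sets did.

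**Figure D1:**
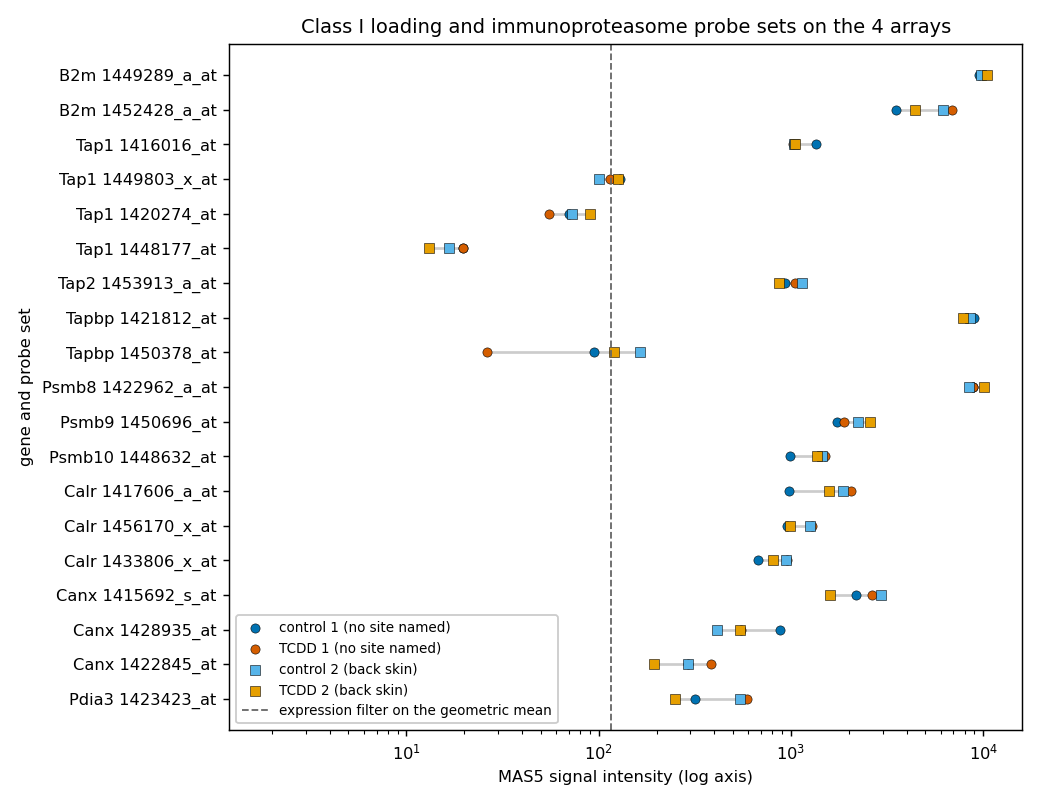
MAS5 signal (log axis) of the 19 probe sets on each of the 4 arrays; circles are the arrays with no site named, squares those from back skin, grey lines join the lowest and highest array, and the dashed line is the filter at a geometric mean signal of 115. The brighter probe sets of B2m, Tapbp and Psmb8 form tight clusters, and Pdia3 spans 250.4 to 593.8.

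The comparison of TCDD with control asked whether class I loading genes of Langerhans cells differ a day after dioxin. None of the 10 genes passed the test. The estimates lay between -0.30 (Canx 1415692_s_at) and 0.42 (Calr 1417606_a_at) on the log2 scale, with a median of 0.06 over the 16 tested probe sets and -0.01 over all 13576. At an adjusted p under 0.05 (limma), 0 of 16 were called, against 0% of all tested probe sets. At an unadjusted p under 0.05 the count was again 0 of 16, against 1.47% of all.

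Calr 1417606_a_at had the largest estimate, 0.42 ± 0.40 (SE, n = 2 per group, limma adjusted p = 0.9999, 95% interval -0.50 to 1.34), and was higher after TCDD in 1 of the 2 preparations. The immunoproteasome subunits differed by 0.14 ± 0.30 for Psmb8, 0.16 ± 0.33 for Psmb9 and 0.27 ± 0.36 for Psmb10. The 95% interval lay within a 2-fold change in either direction for 9 of the 16 probe sets and not for 7. It did for Psmb8 (-0.54 to 0.81), Psmb9 (-0.60 to 0.93), Tap2 (-0.92 to 0.69) and Tapbp (-0.79 to 0.56), and it did not for Psmb10 (-0.55 to 1.09) and Pdia3 (-1.19 to 0.99). The probe sets of the other genes were divided: B2m 1449289_a_at (-0.57 to 0.75) lay within and 1452428_a_at (-0.66 to 1.16) did not, and Tap1 1416016_at (-0.98 to 0.60) lay within and 1449803_x_at (upper bound 1.16) did not. Of 3 probe sets each, 2 of Calr and 1 of Canx lay within. The count fell to 3 of 16 without TCDD 1 and to 3 without TCDD 2, these being B2m 1449289_a_at, Psmb8 and Tapbp both times, and was 7 without control 2 and 12 without control 1. With median centring it was 6, and those 3 probe sets were not among them. These intervals rest on a variance shared across probe sets and 1 residual degree of freedom per probe set. The TCDD groups did not overlap the controls for 3 of 16 probe sets: B2m 1449289_a_at and Psmb8 were higher, where 12.4% of all tested probe sets were, and Tapbp 1421812_at was lower, where 13.2% were.

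Without control 2, whose labels conflict, 285 of the 13576 probe sets passed (limma, TCDD against control 1 alone, on the assumption that the lone array varies like the others), and 0 of the 16 were among them. Control 1 has the highest 3′ to 5′ ratio of the arrays, and its part in these 285 calls was not tested. Calr 1417606_a_at then differed by 0.88 and Canx 1428935_at by -0.68. Without control 1, 12 probe sets passed, again with 0 of the 16, and Calr 1417606_a_at differed by -0.04.

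**Figure D2:**
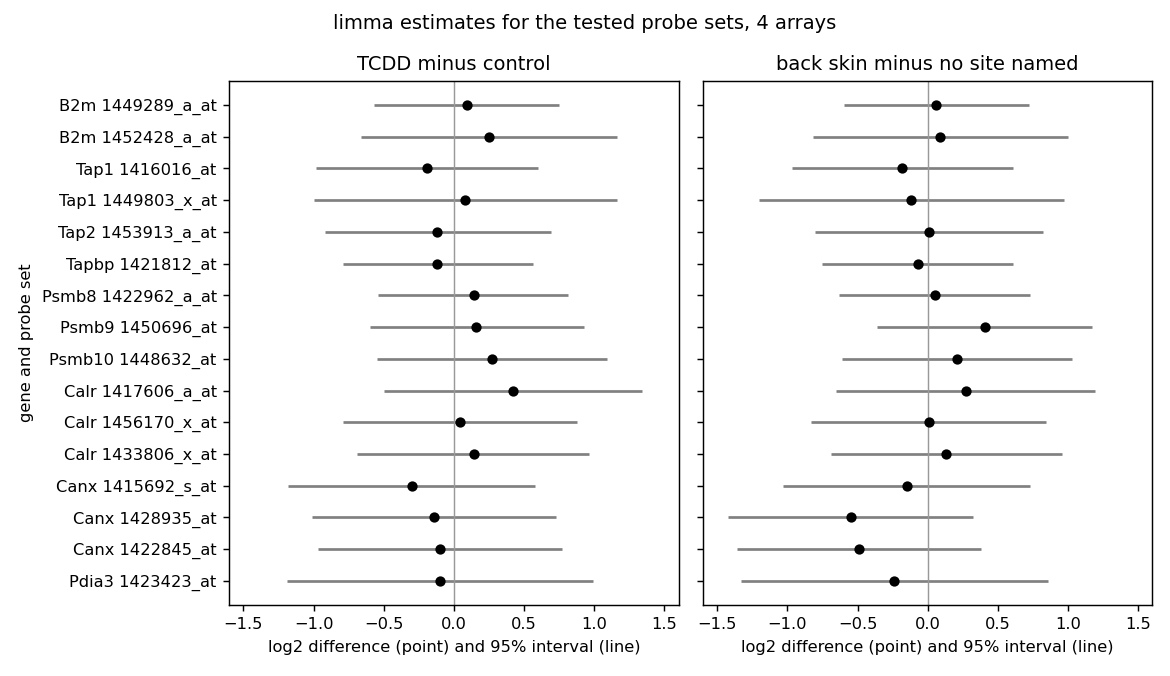
limma log2 differences (points) with 95% intervals (lines) for the 16 tested probe sets, TCDD minus control on the left and back skin minus no site named on the right. All 16 intervals cross 0 in both panels.

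For 12 of the 16 probe sets the TCDD to control ratio went opposite ways in the preparations. It was above 1 without a named site and below 1 in back skin for 9 of the 16 probe sets (33.5% of all tested): B2m 1452428_a_at, Tap2, Psmb10, all 3 of Calr, Canx 1415692_s_at and 1422845_at, and Pdia3. It was the reverse for 3, both of Tap1 and Canx 1428935_at (25.8% of all). Only B2m 1449289_a_at, Psmb8 and Psmb9 were higher in both preparations (19.3% of all), and only Tapbp was lower in both (21.3% of all). Some of the 9 probe sets read the same gene. By the brightest probe set per gene, 5 of the 10 genes were higher without a named site and lower in back skin. Of all 8413 genes taken in this way, 31.3% were. The log2 ratio of Pdia3 was 0.91 without a named site and -1.11 in back skin. In the same order, the ratios of B2m 1452428_a_at were 0.98 and -0.48, those of Canx 1415692_s_at 0.27 and -0.87, and those of Calr 1417606_a_at 1.07 and -0.23. Each ratio has 1 array on either side, so the difference between preparations could not be tested.

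Put by array, TCDD 1 and control 2 were both above control 1 and TCDD 2 for those same 9 probe sets, against 24.2% of all tested probe sets. They were both below for the 2 Tap1 probe sets, against 18% of all. Control 1 was the lowest array for 7 of the 16 (31.7% of all) and the highest for 4 (27.6% of all), and TCDD 2 was the lowest for 5 (25.2% of all). Control 1 and TCDD 2 are the arrays with the highest 3′ to 5′ ratios. For actin these were 49.7 and 7.71, against 4.64 for control 2 and 3.48 for TCDD 1, so control 1 stood apart. Markers of T cells, which could be carried over in the sort, split the same arrays. The summed signal of 9 of 10 markers on the array was 812 on control 1 and 785 on TCDD 2. It was 1486 on TCDD 1 and 2419 on control 2, and no sum was at 0. Cd247 alone did not split them, and Cd3d, Lat and Trat1 failed the filter. The melanocyte sum split them by less, with 1580 on control 1 and 1649 on TCDD 2 against 1676 and 2196. So did the fibroblast and endothelial sum, with 1057 and 918 against 1086 and 1248, though only 3 of its 8 markers passed the filter. The keratinocyte sum (5 of 9 markers passed the filter) and that of B cells, plasma cells and granulocytes (2 of 7 passed) did not. The summed signal of the 10 Langerhans cell markers did not split control 1 and TCDD 2 from the other arrays. It was 37774 on control 1 and 40232 on TCDD 2, against 38907 on TCDD 1 and 49649 on control 2. Cd207 (langerin) did so by itself. Its signals were 2119.9 on control 1 and 2154.7 on TCDD 2, against 5343.3 on TCDD 1 and 7210.5 on control 2. Cdh1 split the arrays the same way and Tnfrsf11a the opposite way, and the other markers of this list overlapped. The part of RNA quality, of T cells or of other cell types in the 9 probe sets was not tested. The median log2 difference between these pairs of arrays was 0.32 over the 16 probe sets and 0.05 over all. In samples of sorted cells, fewer cells of a type and less RNA per cell cannot be told apart.

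**Figure D3:**
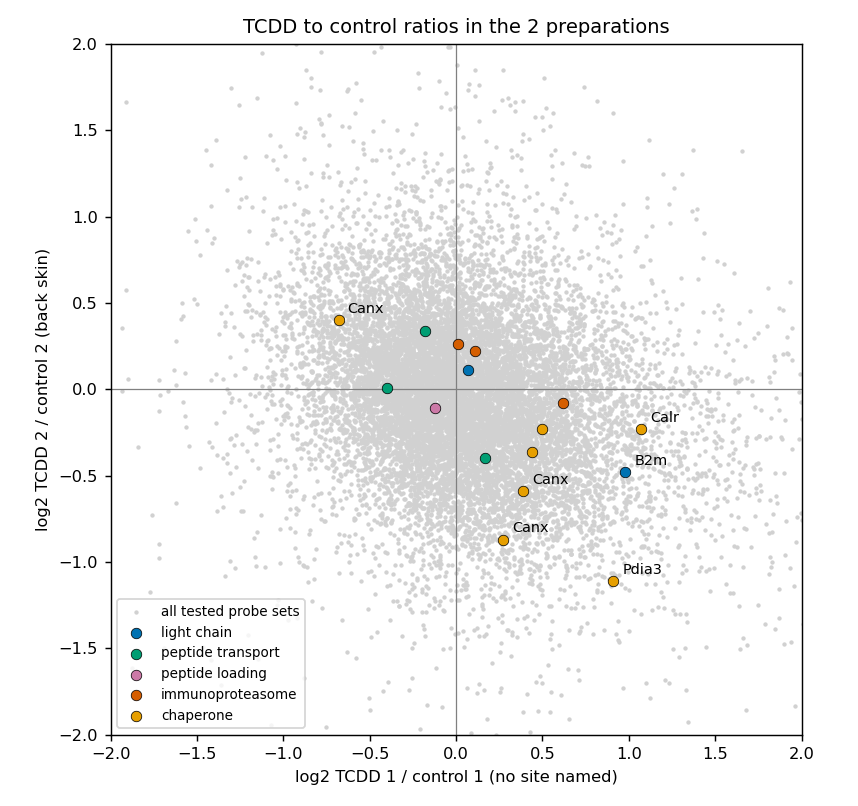
log2 ratio of TCDD 1 to control 1 (no site named, horizontal) against TCDD 2 to control 2 (back skin, vertical); grey dots are all 13576 tested probe sets, of which 258 lie outside the axes, and coloured dots are the 16 tested probe sets by role. Of the coloured dots, 9 lie to the lower right of the origin, with Pdia3 at 0.91 and -1.11.

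Where a gene had several tested probe sets, they shared the sign of the TCDD estimate for B2m (0.09 and 0.25), Calr (0.04 to 0.42) and Canx (-0.30 to -0.10), but not for Tap1 (-0.19 and 0.08). Across the split of TCDD 1 and control 2 from control 1 and TCDD 2, Calr gave 0.36 to 0.65 and Tap1 -0.26 and -0.20. B2m gave -0.02 and 0.73, and Canx -0.54 to 0.57. The probe sets of B2m and of Canx therefore disagreed along this split, across which B2m 1449289_a_at and Canx 1428935_at overlapped. The 3′ to 5′ ratios were highest on control 1 and TCDD 2 but did not divide the arrays into these pairs. Control 1 stood apart (49.7 for actin), and TCDD 2 (7.71) lay nearer to control 2 (4.64) and TCDD 1 (3.48). The part of RNA quality in these disagreements was not tested, and the sources used here do not give the positions of the probes.

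**Figure D4:**
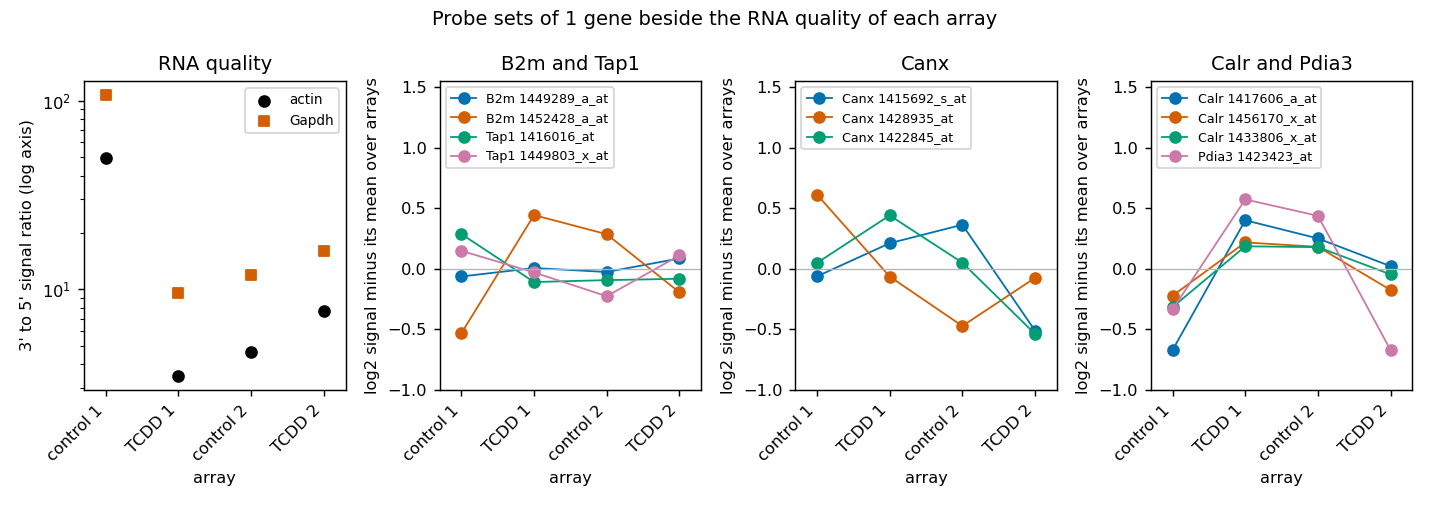
Left, 3′ to 5′ signal ratio (log axis) of the actin and Gapdh control probe sets on each array; other panels, log2 signal minus its mean over the 4 arrays for the tested probe sets of B2m and Tap1, Canx, and Calr and Pdia3, 1 line per probe set. The 3 lines of Calr share their lowest and highest array over different ranges, while those of B2m and of Canx differ in pattern between probe sets.

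The back skin arrays were then set against the arrays with no site named, for the same genes. None passed: 0 of 16 probe sets at an adjusted p under 0.05 (limma), against 0% of all, and 0 at an unadjusted p under 0.05, against 2.02% of all. Psmb9 was higher on both back skin arrays (0.41 ± 0.33, SE, n = 2 per preparation, limma adjusted p = 0.9994), where 16.1% of all tested probe sets were. Canx 1428935_at was lower on both (-0.55 ± 0.38), where 15.9% of all were. Canx 1422845_at differed by -0.49 ± 0.38 and overlapped between preparations. The median over the 16 was 0.01, as over all tested probe sets. The difference between the controls (control 2 over control 1) and that between the TCDD arrays (TCDD 2 over TCDD 1) were 0.35 and 0.46 for Psmb9. They were -1.09 and -0.01 for Canx 1428935_at, so that value rested on control 1 and control 2.

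The constitutive catalytic subunits are what the immunoproteasome subunits replace, and their changes were set side by side within each preparation. Psmb5, the counterpart of Psmb8, had signals of 3528.6, 4762.7, 4469.0 and 4548.3 on control 1, TCDD 1, control 2 and TCDD 2. Psmb6, the counterpart of Psmb9, had 4782.0, 4809.4, 6201.6 and 5662.3. Psmb7, the counterpart of Psmb10, had 754.0, 1155.1, 863.4 and 770.0. The log2 ratio of TCDD to control of Psmb9 exceeded that of Psmb6 by 0.10 for the arrays with no site named and by 0.35 for back skin. Psmb10 exceeded Psmb7 by 0.0043 and 0.09. For Psmb8 against Psmb5 the difference was -0.42 for the arrays with no site named and 0.24 for back skin. These differences have 1 array pair each and were not tested.

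Other genes of the pathway were taken by their brightest probe set and likewise had 0 called for TCDD (limma, adjusted p = 0.9999 for each gene named here). Of all 8413 genes tested in this way, 17.9% were higher and 22.8% lower after TCDD in both preparations. Of 7 tested class I heavy chains and relatives, 1 was higher (Mr1, which presents vitamin metabolites, 0.13 ± 0.41) and 1 lower (H2-T3, -0.20 ± 0.34) in both. H2-D1, a classical heavy chain, had signals of 2762.7 (control 1), 5825.5 (TCDD 1), 7176.5 (control 2) and 3823.6 (TCDD 2), with the same arrays high and low as for Pdia3. H2-K1, also classical, was nearly level, from 10102.1 on TCDD 2 to 12395.8 on control 2, with a difference of -0.13 ± 0.29. Heavy chains are close relatives, and the probe sets of H2-D1, H2-K1 and H2-T3 carry the suffix x.

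Of 8 tested genes of peptide trimming, the PA28 activator and proteasome assembly, 1 was higher and 1 lower in both preparations. Pomp is the assembly chaperone of new proteasomes. It gave control signals of 1837.4 and 2104.3 and TCDD signals of 2576.4 and 2643.8 (0.41 ± 0.33). Both TCDD arrays were above both controls, where 12.4% of all tested probe sets were. Psme3, a nuclear proteasome activator subunit, had 523.2 on control 1 and between 330.4 and 351.9 on the other arrays (-0.30 ± 0.35). All 3 constitutive catalytic subunits were tested, 1 of which was higher in both (Psmb5, 0.23 ± 0.33) and 0 lower.

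Of 12 tested regulators, 1 was higher in both preparations (Rfxap, a subunit of the RFX complex that binds MHC promoters, 0.13 ± 0.34) and 4 were lower. Irf1, an activator of class I genes that interferon induces, was nearly level at 2263.9 to 2646.8 (-0.01 ± 0.33). Irf2, a factor of the same family, gave control signals of 209.3 and 140.9 and TCDD signals of 117.3 and 60.3, a difference of -1.03 ± 0.47. Both TCDD arrays were below both controls, where 13.2% of all tested probe sets were. The signals were near the filter, and the value did not pass. Irf9, the DNA-binding subunit of the complex activated by type I interferon, gave control signals of 611.4 and 691.4 and TCDD signals of 509.6 and 476.8 (-0.40 ± 0.34).

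A list of ER folding genes, which also takes in translocon and ER membrane proteins and the cytosolic chaperones Hspa8 and Hsph1, had 15 tested genes, of which 5 were higher (Ero1a, Ganab, Hsp90b1, P4hb and Pdia6) and 1 lower (Erp44) in both preparations. Pdia6, a disulfide isomerase, gave control signals of 346.4 and 546.4 and TCDD signals of 740.6 and 641.5 (0.66 ± 0.37). Its TCDD arrays were both above the controls, where 12.4% of all tested probe sets were. Hsp90b1 (GRP94) differed by 0.41 ± 0.34 and Erp44, which retains proteins in the early secretory pathway, by -0.24 ± 0.34. The median over the 15 was 0.03.

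**Figure D5:**
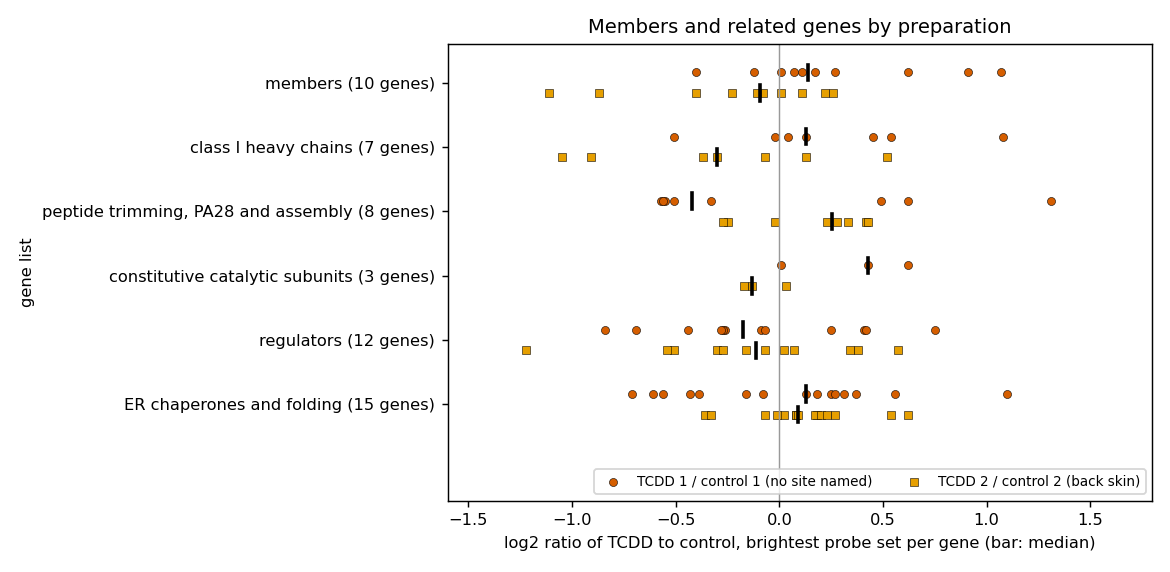
log2 ratio of TCDD to control per gene (brightest probe set) in each preparation for the 10 genes and 5 related lists; circles are the preparation with no site named, squares back skin, and bars the medians. For the 10 genes the median was 0.14 for the arrays with no site named and -0.10 for back skin.

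The median of the centred log2 profiles of the 16 probe sets was -0.10 (control 1), 0.11 (TCDD 1), 0.10 (control 2) and -0.10 (TCDD 2). Of the other genes, those nearest to it over the 4 arrays were Emc7, Calcb and Gpd2, at Euclidean distances of 0.0292, 0.0306 and 0.0307 log2 units.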

How the data were processed

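RNA of 4 samples, 2 control and 2 TCDD, was amplified, labelled with biotin and hybridised to 1 Affymetrix array each. The authors deposited linear intensities (MAS5 signals), made with affy and MAS5 per the submitters' processing notes. The sources used here give neither versions nor background settings nor detection calls.

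Of 22626 probe sets without the 64 array controls, 20380 had 1 gene symbol, 691 several and 1555 none, and 20351 of the 20380 matched RefSeq (GRCm38.p6, used for names and start-site sequences). Intensities were taken to log2 without further scaling. The 13576 probe sets at or above the 40th percentile of mean log2 signal (6.85) were fitted with limma 3.58.1 in R 4.3.3 across all genes, with additive terms for treatment and preparation, trended eBayes and Benjamini-Hochberg adjustment at 0.05. The fit was tested on simulated data. The number of arrays limits precision (median SE 0.364 for TCDD). Protein sequences were not used here, so the planned alignment was not run.

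The members and all gene lists were chosen with earlier results of these data known. Text names every member probe set, a few fixed genes where measured, and the 3 nearest profiles. Of each related list it also names up to 2 genes per direction with the same sign in both preparations. These were picked for the largest absolute TCDD difference, so they are extremes of their lists. Each fit was repeated with quantile normalization, median centring, every probe set tested, a stricter filter (60th percentile), an offset of 32, no trend, no preparation term, and each array left out. Marker lists of 5 other cell types were also measured.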

Additional observations from a re-analysis of the deposited data

How the results depend on the processing

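With each array left out in turn, fits kept only the term under comparison, a lone array was assumed to vary like the others, and the count of called probe sets ranged from 0 to 285 for TCDD and from 0 to 89 for back skin. The 285 came without control 2 and the 89 without TCDD 1, and without control 1 there were 12 for TCDD. None of these calls was a member probe set. No other alternative called a probe set for either comparison. Unadjusted p under 0.05 was met by 96 to 514 probe sets for TCDD and 167 to 621 for back skin under those alternatives.

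Signs of the members and of the related genes named were less stable than the calls. For TCDD minus control the log2 value changed sign when an array was left out for B2m 1452428_a_at (-0.16 to 0.66), Tap1 1449803_x_at (-0.11 to 0.27), Tap2 1453913_a_at (-0.26 to 0.03), Psmb9 1450696_at (-0.07 to 0.39), Psmb10 1448632_at (-0.01 to 0.55), Calr 1417606_a_at (-0.04 to 0.88), Calr 1456170_x_at (-0.16 to 0.24), Calr 1433806_x_at (-0.11 to 0.39), Canx 1415692_s_at (-0.66 to 0.06), Canx 1428935_at (-0.68 to 0.40), Canx 1422845_at (-0.59 to 0.39), Pdia3 1423423_at (-0.72 to 0.52), H2-D1 1425545_x_at (-0.60 to 0.77), Mr1 1421899_a_at (-0.20 to 0.46), Psme3 1418079_at (-0.62 to 0.02), Psmb6 1448822_at (-0.25 to 0.13), Psmb7 1416240_at (-0.07 to 0.52), Irf1 1448436_a_at (-0.12 to 0.10) and Rfxap 1418859_at (-0.15 to 0.42), where the range is over the 4 fits. For back skin minus the other preparation the same held for B2m 1452428_a_at (-0.40 to 0.58), Tap1 1416016_at (-0.38 to 0.02), Tap1 1449803_x_at (-0.29 to 0.05), Tap2 1453913_a_at (-0.19 to 0.21), Psmb8 1422962_a_at (-0.08 to 0.18), Psmb10 1448632_at (-0.10 to 0.52), Calr 1417606_a_at (-0.26 to 0.81), Calr 1456170_x_at (-0.21 to 0.23), Calr 1433806_x_at (-0.12 to 0.38), Canx 1415692_s_at (-0.58 to 0.29) and Pdia3 1423423_at (-0.79 to 0.32). Some further fits between those limits were also opposite in sign to the full fit. Examples for TCDD were -0.22 for H2-D1, 0.29 for Pdia3 and -0.15 for Calr 1456170_x_at. For back skin they included -0.17 for Calr 1456170_x_at and 0.22 for Pdia3. For TCDD, quantile normalization, median centring, no filter, the stricter filter, the offset, no variance trend and no preparation term turned no sign. For back skin, quantile normalization gave -0.0042 for B2m 1449289_a_at and -0.02 for Psmb8. Median centring gave -0.0043 for B2m 1449289_a_at, -0.05 for Tap2, -0.01 for Psmb8 and -0.06 for Calr 1456170_x_at. The cause of these changes was not tested. Tap1 1449803_x_at was not tested under the stricter filter or the offset, nor were Irf2 and Mr1 under the stricter filter. No replicate numbers are given in the labels, and the fit without the preparation term, that is with no replicate block, gave 0 calls. With 2 arrays per group, the median 95% interval reached 0.83 to either side of a TCDD estimate.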
